A study of Rattus norvegicus with 6 samples.

Results

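Glucose enters the heart muscle cell through transporters, is burned by glycolysis or is stored as glycogen, and the genes of these steps were followed in the left ventricle of diabetic rats. The set holds 34 genes, picked by name from the 26456 gene names on the array and measured by 48 probes. It covers 2 transporters, 2 hexokinases, 18 genes of the remaining glycolytic steps, 2 lactate dehydrogenases and 10 genes of glycogen synthesis and breakdown. The rule itself uses no measured value, but the genes were chosen with earlier results of these data known. Samples came from 3 male OLETF rats aged 27 or 28 weeks, which are labelled as type 2 diabetic, and from 3 male LETO rats aged 27 or 28 weeks, which are labelled as healthy controls. OLETF is an obese inbred strain that develops diabetes with age, and LETO is its lean companion strain. The labels name no treatment for either strain. Diabetes and the other genetic differences between the strains cannot be told apart in this design.

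In the adult heart, glucose uptake responds to insulin mainly through Slc2a4 (GLUT4), which is stored in vesicles inside the cell and moved to the surface, while Slc2a1 (GLUT1) gives basal uptake. Hexokinase traps the sugar, phosphofructokinase sets much of the glycolytic rate, and the later enzymes lead to pyruvate and lactate. Glycogen is built by glycogen synthase and the branching enzyme and taken apart by glycogen phosphorylase, which phosphorylase kinase switches on. Most steps have muscle isoforms and isoforms better known from brain, liver or many tissues, so the array also shows whether isoforms of a step moved alike.

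Values are log2 signals relative to the 75th percentile of the array, so 0 is the signal of a fairly bright probe and each unit is a doubling. A level can be compared between rats for 1 probe, not between probes. Between 75.5% and 79.8% of spots were well above background per array, no spot was saturated, and the 75th percentile lay between 887 and 1228 intensity units. The number of arrays limits the precision. Ventricular cardiomyocyte markers were above background on all arrays for 9 of 9 genes. Their summed signal, in multiples of the 75th percentile, was 2445 to 2971 in OLETF and 2680 to 2965 in LETO. Their differences ran from −0.20 to −0.02, none passed, and the strains did not overlap for 3 (against 17.4% of all genes). Of 4 atrial markers none passed, with differences from −2.03 to −0.09. The standard errors were large for Myl7 (−2.03 ± 1.51) and Sln (−0.66 ± 1.72), so evenness of atrial tissue between arrays cannot be assumed. Among 7 fibroblast and 4 smooth muscle markers tested none passed, with an unadjusted limma p below 0.05 for 3 and 2 of them. The share of all genes with such a p was not computed. LETO 1 stood apart from the other LETO arrays on the second principal component, which held 23.8% of the variance, and had the lowest array weight (0.205). LETO 1 to 3 and OLETF 1 shared a slide and OLETF 2 and 3 shared another, so a fit with slide as a block rests on OLETF 1 against the 3 LETO arrays. The labels speak of independent experiments, and p-values measure the spread between these rats.

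Most of the pathway lay close to its LETO level. Eno1, an enolase, and Phka1, the muscle regulatory subunit of phosphorylase kinase, were higher in OLETF ventricles, and Pygl, the glycogen phosphorylase best known from liver, was lower. These 3 of 34 members passed (limma, adjusted p below 0.05), or 8.82%, and 31 did not. Pygl entered the test through its LETO signal and was above background on only 1 OLETF array. Of all 18816 genes tested, 2.55% passed, 1.50% as higher in OLETF and 1.05% as lower. A filter that asks for signal above background on all 6 arrays left Pygl out, and then 2 members and 433 of 18067 genes passed. Over all 34 members, the called ones included, 15 values were positive and 19 negative, and the median difference was −0.04, against −0.01 for all genes. The median size of a difference, leaving its sign aside, was 0.104 for the members and 0.0979 for all genes. Of the members, 29 differed by less than 0.3 log2 units, and for 24 the 95% interval lay within 0.5 log2 units of 0 on both sides. The groups did not overlap for 8 members, or 23.5%, against 17.4% of all genes. For 6 of these (Slc2a1, Hk1, Tpi1, Eno1, Ldha and Phka1) every OLETF array was higher, which held for 8.92% of all genes, and for Pygb and Pygl every OLETF array was lower, which held for 8.43%. All 48 probes were tested, and 33 of the 34 genes were above background on all 6 arrays, the exception being Pygl. RNA of whole ventricle was measured, so fewer cells of a type and less RNA per cell cannot be told apart in any of these values.

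**Figure D1:**
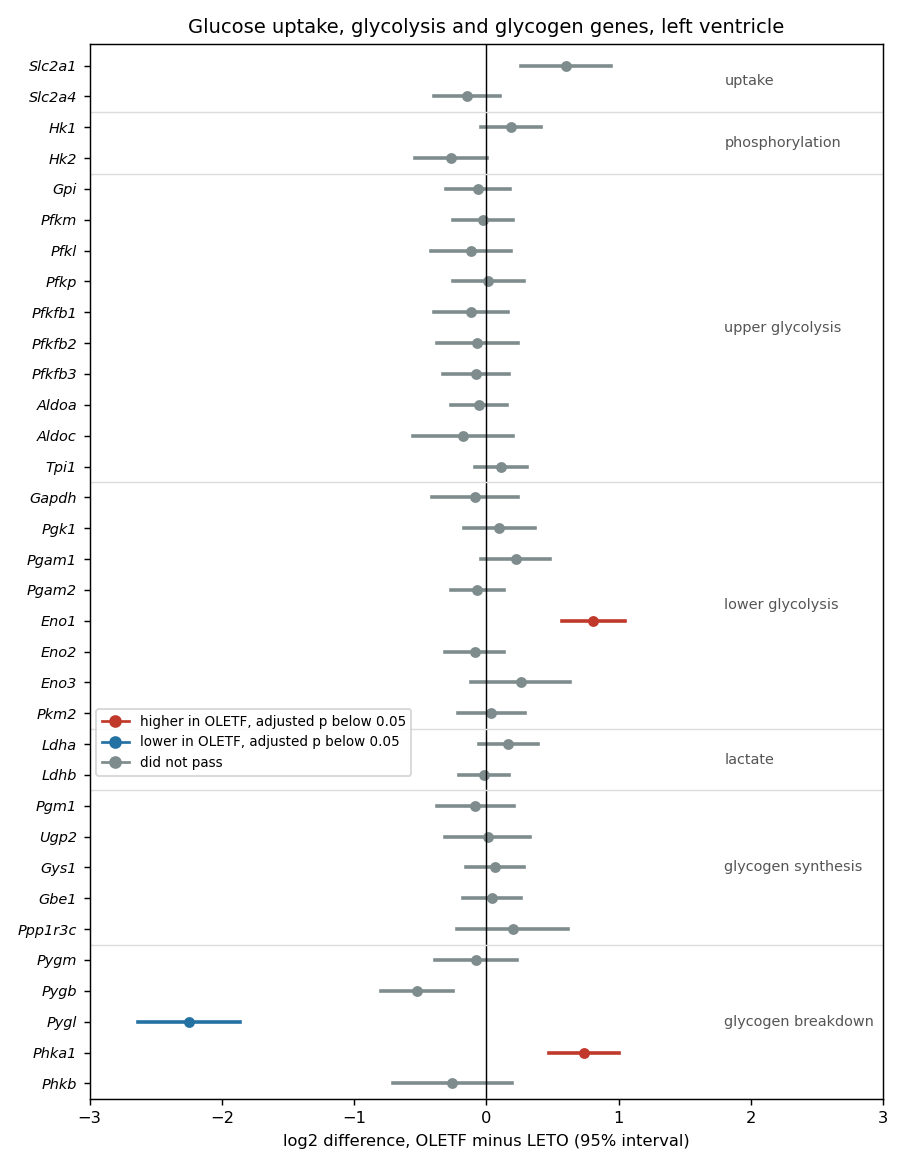
Log2 difference between OLETF and LETO (horizontal axis) for each of the 34 genes, ordered by pathway step from uptake at the top to glycogen breakdown at the bottom, with 95% intervals from limma and n = 3 arrays per strain. Eno1 (0.81) and Phka1 (0.74) lie to the right, Pygl (−2.25) lies far to the left, and 29 of 34 genes lie within 0.3 of 0.

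Neither transporter passed the test. Slc2a4, the insulin-responsive transporter, had log2 signals of 4.00, 3.75 and 3.75 in OLETF 1 to 3, against 3.88, 4.04 and 4.02 in LETO 1 to 3. OLETF 1 lay inside the LETO range and the other OLETF arrays just below it, so the groups overlapped. The difference was −0.15 ± 0.10 (SE, limma adjusted p = 0.717), with a 95% interval of −0.40 to 0.10, and 0.02 in the slide-blocked fit. Slc2a1, the basal transporter, had 1.07, 1.31 and 0.84 in OLETF and 0.55, 0.29 and 0.58 in LETO. Every OLETF array was higher than every LETO array. The mean difference of 0.60 ± 0.14 corresponds to 1.52-fold and was 0.60 with slide as a block, and it did not pass (adjusted p = 0.0989) except with trend and robust moderation (adjusted p = 0.0449). Slc2a1 is also a transporter of red blood cells and endothelium. The 8 endothelial markers were all above background, and none passed. Their differences ran in both directions, from −0.33 to 0.27 with a median of 0.05, and their summed signals were 35.5 to 39.3 in OLETF and 32.6 to 37.5 in LETO. Of 5 red blood cell markers on the array 3 were tested, and they went in opposite directions. Slc4a1 rose by 3.19 (limma adjusted p = 0.00589), while Hbb and Hba-a2 had −2.22 and −0.94 and did not pass. Their summed signals were 6.64 to 7.71 in OLETF and 6.26 to 22.4 in LETO. The part of these cells in the Slc2a1 values was not tested.

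Neither hexokinase passed, and their differences had opposite signs. Hk1, the isoform of most tissues, had log2 signals of 4.20, 4.03 and 3.99 in OLETF and 3.85, 3.84 and 3.98 in LETO. The groups did not overlap, although OLETF 3 and LETO 3 differed by little. The difference was 0.18 ± 0.10 (adjusted p = 0.536). Hk2, the insulin-regulated muscle isoform, had −1.12, −0.81 and −0.98 in OLETF and −0.63, −0.85 and −0.63 in LETO. Only OLETF 2 reached into the LETO range. The difference was −0.27 ± 0.12 (adjusted p = 0.422), and its 95% interval of −0.54 to 0.01 reached 0.

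The 10 genes of upper glycolysis gave no call, 0 of them had an unadjusted limma p below 0.05, and their differences ran from −0.18 (Aldoc) to 0.11 (Tpi1) with a median of −0.07. Pfkm, the phosphofructokinase of muscle, had log2 signals of 4.88, 4.75 and 4.79 in OLETF and 4.71, 4.89 and 4.91 in LETO. Both strains covered the same range, and the difference was −0.03 (95% interval −0.25 to 0.20). The liver and platelet phosphofructokinases Pfkl and Pfkp had −0.12 and 0.02. Pfkfb2, the cardiac form of the enzyme that makes and degrades fructose 2,6-bisphosphate, the activator of phosphofructokinase, had −1.77, −1.92 and −1.72 in OLETF and −1.95, −1.75 and −1.51 in LETO. LETO 1 was the lowest of all 6 arrays and LETO 3 the highest, and the difference was −0.07. The related Pfkfb1 and Pfkfb3 had −0.12 and −0.08. Glucose phosphate isomerase (Gpi) and the muscle aldolase Aldoa had −0.07 and −0.06. Triosephosphate isomerase (Tpi1), which interconverts the 3-carbon sugars, had 6.29, 6.32 and 6.26 in OLETF and 6.10, 6.22 and 6.24 in LETO. Its groups did not overlap, and the difference of 0.11 ± 0.08 did not pass (adjusted p = 0.748).

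In lower glycolysis 1 of 8 genes passed, Eno1, where 2.55% of all genes tested passed, and the median difference was 0.07. Eno1 encodes alpha-enolase, which turns 2-phosphoglycerate into phosphoenolpyruvate and is the enolase of most tissues, while Eno3 is the muscle form and Eno2 the neuronal form. Eno1 had log2 signals of 7.0, 7.27 and 7.06 in OLETF 1 to 3, against 6.23, 6.33 and 6.34 in LETO 1 to 3. The groups lay well apart, and neither strain varied by more than 0.3 log2 units. The difference was 0.81 ± 0.10 (SE, 95% interval 0.57 to 1.05), or 1.75-fold higher in OLETF (limma adjusted p = 0.00853), and it passed without each array in turn. With slide as a block it was 0.70 and did not pass (adjusted p = 0.173), where 0.558% of all genes passed.

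Eno1 was measured by 3 probes, all above background on all 6 arrays. The probe that stands for the gene lies in rn4 at chr5:167405465-167405524. A neighbouring probe on the same chromosome, at chr5:167405206-167405265, had log2 signals of 4.96, 5.21 and 5.01 in OLETF and 4.46, 4.02 and 4.10 in LETO. Its groups did not overlap, and the difference was 0.87 ± 0.14 (adjusted p over all probes = 0.0231). The third, made for the messenger RNA X02610, is placed by the files at chr10:53300221-53300280 and had 1.42, 1.6 and 1.44 in OLETF and 0.68, 0.39 and 0.54 in LETO. It also separated the strains, with a difference of 0.95 ± 0.11 (adjusted p over all probes = 0.0062). RefSeq lists 34 enolase 1 copies in the rat, 31 of them pseudogenes, so the copy that each probe measured is uncertain. Another pair of probes for such copies, outside the 34 genes and looked up after the Eno1 values were seen, showed the same direction. XM_227366, which RefSeq calls Eno1-ps11 and a pseudogene, had 1.15, 1.43 and 1.22 in OLETF and 0.10, −0.20 and −0.10 in LETO, a difference of 1.33 ± 0.12 (adjusted p = 0.00218). ENSRNOT00000002064, RefSeq's Eno1l3, had 1.75, 1.95 and 1.75 in OLETF and 1.09, 0.69 and 0.85 in LETO, a difference of 0.94 ± 0.13 (adjusted p = 0.012) that was lost without OLETF 2 or OLETF 3. On both, every OLETF array was above every LETO array, and with slide as a block neither passed (1.21, adjusted p = 0.0583, and 0.87, adjusted p = 0.205). The probes are shown as printed in the array files, 5′ to 3′, because they read different stretches of enolase 1 type transcripts. The longest run of bases that any pair of the 5 Eno1-type probes shares is 7.
Eno1 (X02610, rn4 chr10:53300221-53300280, minus strand): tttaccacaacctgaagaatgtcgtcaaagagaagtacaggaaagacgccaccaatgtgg
Eno1-ps11 (XM_227366, rn4 chr2:186082622-186082682, minus strand): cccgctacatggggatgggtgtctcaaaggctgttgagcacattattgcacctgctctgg
Eno1l3 (ENSRNOT00000002064, rn4 chr10:44889614-44889673, minus strand): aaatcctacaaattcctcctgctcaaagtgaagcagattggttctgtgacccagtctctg

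**Figure D2:**
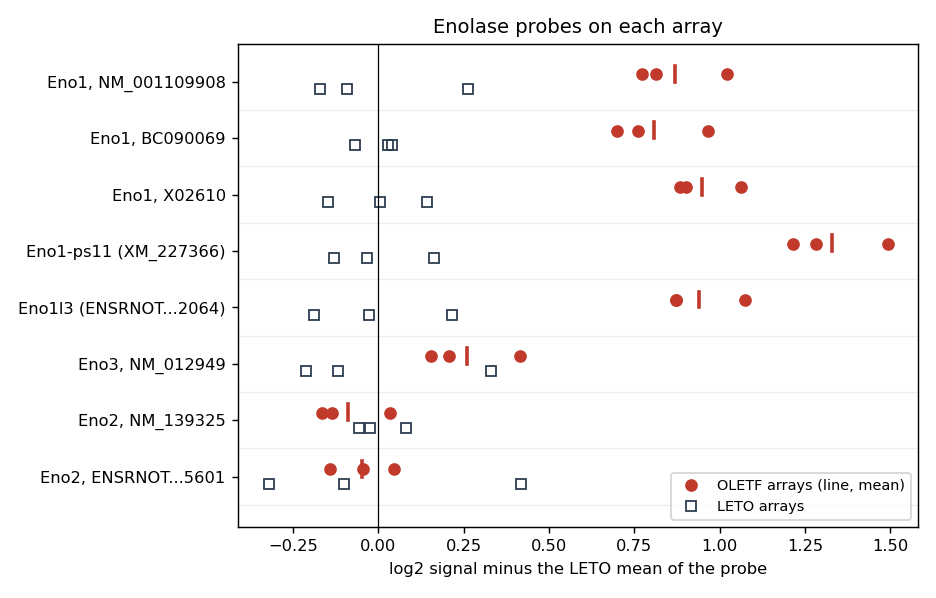
Log2 signal of each array minus the LETO mean of the same probe (horizontal axis) for 8 enolase probes, with filled circles for OLETF, open squares for LETO and a short line at the OLETF mean. For the upper 5 probes, of Eno1 type, all OLETF arrays lie to the right of all LETO arrays, whereas the Eno3 and Eno2 probes overlap.

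The other enolases did not pass. Eno3, the muscle enolase, had log2 signals of 6.92, 7.18 and 6.98 in OLETF and 6.56, 6.65 and 7.10 in LETO. LETO 3 lay within the OLETF range and the other LETO arrays below it. The difference was 0.26 ± 0.16 (adjusted p = 0.637), with a 95% interval of −0.12 to 0.63, and leaving out 1 array gave 0.15 (without LETO 1) to 0.42 (without LETO 3). With array weights it was 0.04. Eno2 had −0.09 on 1 probe and −0.05 on the other.

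The remaining genes of lower glycolysis stayed within 0.3 log2 units of 0. Gapdh, the dehydrogenase often used as a reference gene, had log2 signals of 6.78, 6.86 and 6.72 in OLETF and 7.16, 6.68 and 6.77 in LETO. LETO 1 was the highest array and the other LETO arrays lay level with OLETF. The difference was −0.09 ± 0.14, the 3 Gapdh probes ran from −0.09 to −0.06, and without LETO 1 the value was 0.06. Pgam1, the phosphoglycerate mutase of most tissues, had 4.93, 5.29 and 5.18 in OLETF and 4.95, 4.89 and 4.90 in LETO. Its single probe is placed in rn4 at chr10:110469834-110469894, while RefSeq places the gene on chromosome 1, so what it measured is uncertain. OLETF 1 lay in the LETO range and the OLETF arrays of the second slide above it, and the difference of 0.22 ± 0.11 (adjusted p = 0.503) was 0.02 with slide as a block. The muscle mutase Pgam2 had −0.07. Phosphoglycerate kinase (Pgk1) and pyruvate kinase (Pkm2 in the files, now Pkm) had 0.10 and 0.04, and the 3 pyruvate kinase probes ran from 0.04 to 0.10.

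The lactate dehydrogenases, which convert pyruvate and lactate, did not pass either. Ldha, the subunit typical of skeletal muscle, had log2 signals of 6.98, 7.23 and 7.06 in OLETF and 6.92, 6.90 and 6.95 in LETO. The groups did not overlap, though OLETF 1 and LETO 3 nearly met, and the difference was 0.17 ± 0.09 (adjusted p = 0.592), or 0.06 with slide as a block. Ldhb, the heart subunit, had 7.96, 7.95 and 7.85 in OLETF and 7.93, 7.96 and 7.92 in LETO. It was the most even of the 34 genes within LETO, with an SD of 0.0201, and its difference was −0.02 (95% interval −0.21 to 0.17).

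None of the 5 genes of glycogen synthesis passed the limma test or had an unadjusted p below 0.05, and their median difference was 0.04. Gys1, the glycogen synthase of muscle, had log2 signals of 4.08, 4.16 and 4.01 in OLETF and 3.90, 4.04 and 4.10 in LETO. The arrays were mixed, and the difference was 0.07 (95% interval −0.15 to 0.29). Ppp1r3c, a targeting subunit that brings protein phosphatase 1 to glycogen, had 3.49, 3.95 and 4.13 in OLETF and 3.71, 3.47 and 3.79 in LETO. OLETF 1 was level with the lowest LETO array and the OLETF arrays of the second slide were the highest. The difference was 0.20 ± 0.18 (adjusted p = 0.813), and −0.17 in the slide-blocked fit. The branching enzyme Gbe1, phosphoglucomutase 1 (Pgm1) and UDP-glucose pyrophosphorylase (Ugp2), which makes the sugar donor of glycogen synthase, had 0.04, −0.08 and 0.01.

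Of the 5 genes of glycogen breakdown 2 passed, Pygl and Phka1, where 2.55% of all genes tested passed. With so few genes these counts cannot show that calls gather in this step. Pygl had log2 signals of −6.17, −5.86 and −5.60 in OLETF 1 to 3, against −3.83, −3.50 and −3.57 in LETO 1 to 3. The strains lay far apart, and the probe was above background on all 3 LETO arrays but on only 1 OLETF array. It was therefore tested through its LETO signal. Both its p-value and the size of the difference are uncertain, because 2 of the OLETF values are not above background. The difference was −2.25 ± 0.16 (SE, 95% interval −2.63 to −1.86), or 4.75-fold lower in OLETF (limma adjusted p = 0.000983). With OLETF signals raised to the lowest signal above background on their arrays, between −6.45 and −5.68, the ratio was 4.56-fold. The size depended on the background correction: with normexp it was −0.86 (adjusted p = 0.00737). With slide as a block the difference was −2.54, and the call held without each array in turn. These fits use the same OLETF signals, 2 of them not above background, so they add no independent support. A filter that asks for signal above background on all 6 arrays gives Pygl no value. Its single probe lies in rn4 at chr6:92298341-92298400 on the minus strand.

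The other phosphorylases, which release glucose 1-phosphate from glycogen, did not pass. Pygb, the brain isoform, which heart also contains, had log2 signals of 2.50, 2.21 and 2.32 in OLETF and 2.82, 2.77 and 3.01 in LETO. Every OLETF array was lower than every LETO array. The difference was −0.52 ± 0.11, or 1.44-fold lower, at an adjusted p of 0.0725. It passed with trend and robust moderation (adjusted p = 0.0302) and when arrays were weighted by quality (−0.60, adjusted p = 0.0118). In the fit with a slide block it was −0.37 (adjusted p = 0.653). Pygm, the muscle isoform, had 3.65, 3.53 and 3.54 in OLETF and 3.90, 3.43 and 3.63 in LETO. LETO 1 was the highest array and LETO 2 the lowest, and the difference was −0.08 (95% interval −0.39 to 0.23). Pygl is also found in white blood cells. Of 7 lymphocyte markers 4 were tested, all 4 above background on all arrays. Their differences ran from −0.96 to −0.16, and 2 passed, Cd3g and Nkg7, which fell by 0.96 and 0.84. Their summed signals were 1.59 to 1.70 in OLETF and 2.31 to 2.85 in LETO. The 6 macrophage markers gave no call and had 14.9 to 18.6 in OLETF and 11.1 to 18.6 in LETO. Of 5 neutrophil and mast cell markers 2 were tested, both mast cell genes, so neutrophils had no tested marker. Cpa3, above background on 3 OLETF and 2 LETO arrays, rose by 1.03, Tpsab1 had 0.65 and did not pass, and their sums were 0.552 to 1.10 in OLETF and 0.404 to 0.781 in LETO. The part of these cells in the Pygl and Pygb values was not tested.

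Phosphorylase kinase turns phosphorylase on in response to calcium and adrenaline, and the array measured its regulatory alpha subunit of muscle, Phka1, and its beta subunit, Phkb. Phka1 had log2 signals of −3.65, −3.55 and −3.58 in OLETF and −4.14, −4.37 and −4.49 in LETO. The OLETF arrays lay within 0.101 of each other and all above LETO. The difference was 0.74 ± 0.11 (95% interval 0.48 to 1.00), or 1.67-fold higher in OLETF (limma adjusted p = 0.018). The call was close to the threshold: it was lost without LETO 2, LETO 3, OLETF 1, OLETF 2 or OLETF 3, with adjusted p between 0.0609 and 0.103, and passed without LETO 1 (0.84, adjusted p = 0.0094). It was also lost with normexp (0.38, adjusted p = 0.135), without a filter on dim probes (adjusted p = 0.0723), with a replicate block (adjusted p = 0.0686) and in the slide-blocked fit (0.68, adjusted p = 0.272). The files give no rn4 position for its probe, and RefSeq places the gene on chromosome X. Its sequence is shown because this probe alone carries the Phka1 call.
Phka1 probe: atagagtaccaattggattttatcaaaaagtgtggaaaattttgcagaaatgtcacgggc
Phkb had −2.33, −2.15 and −2.11 in OLETF and −2.38, −1.71 and −1.72 in LETO. LETO 1 lay below all OLETF arrays and the other LETO arrays above them. The difference was −0.26 ± 0.19 (adjusted p = 0.737), and leaving out 1 array gave −0.48 (without LETO 1) to −0.14 (without LETO 2).

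**Figure D3:**
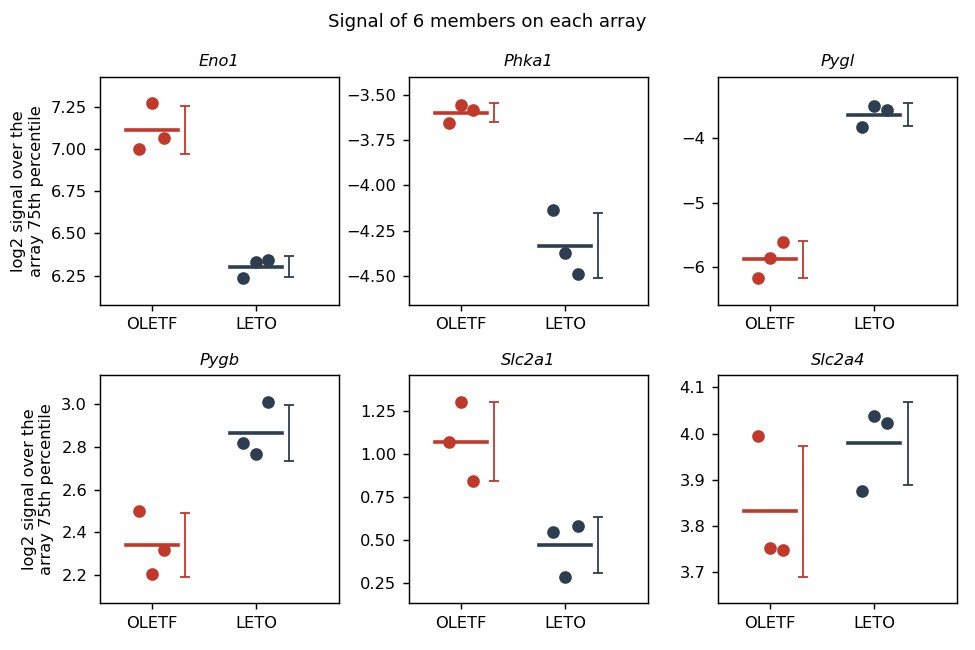
Log2 signal over the 75th percentile of the array (vertical axis, its own scale per gene) on each of the 3 OLETF and 3 LETO arrays for 6 genes, with the mean as a line and the SD as a bar. For Eno1, Phka1, Pygl, Pygb and Slc2a1 the strains do not overlap, and for Slc2a4 OLETF 1 lies inside the LETO range.

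**Figure D4:**
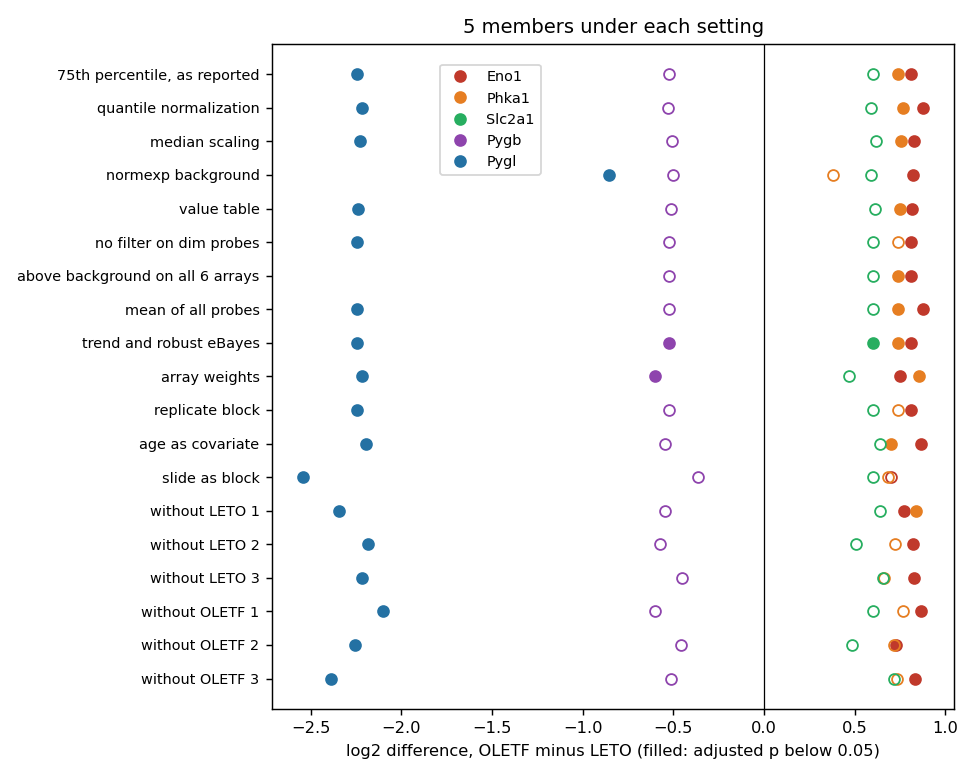
Log2 difference between OLETF and LETO (horizontal axis) of 5 genes under each way of processing the arrays (vertical axis), with filled symbols where the adjusted p was below 0.05. Pygl is filled wherever it has a value but moves to −0.86 with normexp, Eno1 is open only with slide as a block, and Phka1 is filled in some settings and open in others.

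The isoforms of a step were then set against each other within each array, which shows unequal change and not which isoform is more abundant. Over 12 pairs, the muscle or heart form over the other form, the ratio did not overlap between strains for 5. Of single genes on the whole array 17.4% did not overlap, which is an unlike measure, and no share was computed for ratios of other pairs. Several of the 5 pairs hold a gene already described as separated, such as Eno1 or Pygl. Pygm, Eno3 and Pfkm each occur in more than 1 pair, so the pairs are not independent. With 3 arrays against 3 the exact two-sided permutation test cannot go below p = 0.1, and these 5 pairs had that p, or 0.24 after adjustment over the 12 pairs, so no pair passed. The Slc2a4 to Slc2a1 log2 ratio was 2.92, 2.45 and 2.9 in OLETF and 3.33, 3.75 and 3.44 in LETO. Each OLETF array had a lower ratio than each LETO array, by 0.75 in the mean. The Hk2 to Hk1 ratio was −5.32, −4.84 and −4.97 in OLETF and −4.48, −4.68 and −4.61 in LETO, lower on each OLETF array and by 0.45 in the mean. Neither pair passed, nor did any of their genes alone in the main fit. In the first pair Slc2a1 differed by 0.60 and Slc2a4 by −0.15. An effect of insulin on these ratios was not tested. The Eno3 to Eno1 ratio was −0.08, −0.09 and −0.09 in OLETF and 0.32, 0.32 and 0.75 in LETO. It was nearly the same on the 3 OLETF arrays (SD 0.00389) and varied in LETO (SD 0.25), with a difference of −0.55. The Pygm to Pygb ratio was 1.15, 1.33 and 1.22 in OLETF and 1.08, 0.67 and 0.62 in LETO, a difference of 0.45. Here LETO 1 came close to the OLETF arrays. The Pygm to Pygl ratio differed by 2.17 (0.79 with normexp), which is the Pygl difference seen again and rests on Pygl signals not above background on 2 of 3 OLETF arrays. Within the first slide these 5 differences were −0.58, −0.73, −0.54, 0.37 and 2.54.

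For the other 7 pairs the strains overlapped. The Pgam2 to Pgam1 and Ldhb to Ldha ratios differed by −0.29 and −0.18, and within the first slide by −0.05 and −0.03. The Pgam2 to Pgam1 ratio rests on the Pgam1 probe of uncertain placement. The Eno3 to Eno2 ratio differed by 0.35 with LETO 3 at the OLETF level. The phosphofructokinase ratios (Pfkm to Pfkl and Pfkm to Pfkp), the aldolase ratio (Aldoa to Aldoc) and the Pfkfb2 to Pfkfb3 ratio differed by 0.09, −0.04, 0.12 and 0.01.

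**Figure D5:**
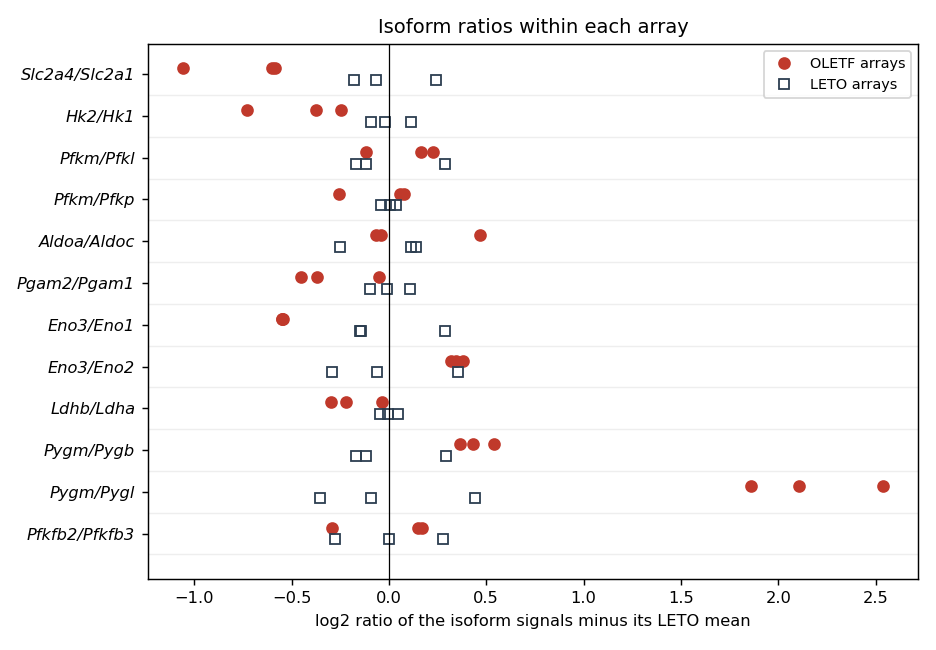
Log2 ratio of the signals of an isoform pair on each array minus the LETO mean of that ratio (horizontal axis) for 12 pairs, with filled circles for OLETF and open squares for LETO. The OLETF circles lie apart from the LETO squares for Slc2a4/Slc2a1, Hk2/Hk1, Eno3/Eno1, Pygm/Pygb and Pygm/Pygl, and overlap with them for the other 7 pairs.

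Within LETO, array 1 was the outermost of the 3 for 26 of the 34 genes (76.5%, against 82.5% of all genes), as the highest for 13 and the lowest for 13. Its distance from the mean of LETO 2 and LETO 3 was largest for Phkb (−0.67), Ugp2 (−0.45) and Gapdh (0.44). Pygm (0.37) and Pgm1 (0.36) were high on it, and Pfkfb2 and Eno3 (both −0.32) and Pgk1 (−0.31) were low. Genes of glycogen metabolism were thus among both the high and the low ones. Without LETO 1 the same number of members passed (3), and their median difference was 0.00 (−0.00398). Probes of 1 gene gave like values. For the 10 genes with several probes that were all above background, the differences of the probes of a gene lay at most 0.192 log2 units apart, for Pfkl at −0.12 and 0.07. The second Pfkfb3 probe, above background on 4 of 6 arrays, gave 0.33 where the brighter one gave −0.08.

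The promoters of the genes share sequence features that the choice of genes did not use. For 32 of the 34 genes RefSeq (build GRCr8) gives the bases before the start of the gene, and 250 bases upstream were searched on both strands. ACGTG, the core bound by hypoxia-inducible factors, was present for 16 of 32 genes, or 50%, against 18.6% of protein-coding genes and 18.1% of all genes. Slc2a1, Pygl, Pygb, Pygm, Ldha, Gapdh and Hk1 hold it, and Eno1, Phka1, Hk2, Eno3 and Gys1 do not, so the called genes fall on both sides. CACGTG, the E-box read by the glucose-responsive factor ChREBP and by Myc and USF, contains the same core and was present for 3 genes (9.4%, against 6.8% of protein-coding genes). These were Ldha, Pfkfb3 and Ppp1r3c. GGGCGG, the GC box of Sp1, was present for 21 genes (65.6%, against 41.4%). The windows were also richer in G and C, with a median of 62.8% against 54.0% of protein-coding genes, and no allowance was made for that. A match in these letters is a description and not a bound site.

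A wider list of 65 genes around the same steps (further isoforms, glycogen regulators, transporter trafficking and glucose-responsive factors) had 61 on the array and 50 tested. None of the 50 passed the limma test, 10 had strains that did not overlap (against 17.4% of all genes), and the median difference was 0.01. An unadjusted limma p below 0.05 was found for 5, and the share of all genes with such a p was not computed. Bpgm, which makes the red blood cell regulator 2,3-bisphosphoglycerate, came closest, with log2 signals of 1.65, 1.66 and 1.66 in OLETF and 1.06, 1.27 and 1.25 in LETO. The groups did not overlap, and the difference was 0.46 ± 0.09 (adjusted p = 0.0504). Of the red blood cell markers Slc4a1 rose by 3.19 (adjusted p = 0.00589), and Hbb and Hba-a2 had −2.22 and −0.94 and did not pass. Their part in the Bpgm value was not tested. Epm2a, the glycogen phosphatase laforin, had −0.74, −1.06 and −1.13 in OLETF and −1.49, −1.55 and −1.32 in LETO. It too was higher on every OLETF array, by 0.48 ± 0.13 (adjusted p = 0.149). Pdk4, the kinase that shuts pyruvate dehydrogenase, had −1.28, −0.88 and −0.33 in OLETF and −1.67, −1.09 and −2.40 in LETO. Its groups overlapped, and the LETO arrays were spread more widely than the OLETF arrays. The difference was 0.89 ± 0.36 (adjusted p = 0.373).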

How the data were processed

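Left ventricle RNA of 3 OLETF and 3 LETO rats was hybridised to 1-colour Agilent arrays, 1 array per rat. The deposited scanner files hold linear intensity, per the file headers, with background subtracted in the processed signal by Agilent Feature Extraction 10.7.3.1. The submitters' processing notes name version 9.1. The value table that was deposited is the same intensity divided by a constant per array, and it served as an alternative.

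From these files, log2 of the processed signal minus each array's 75th percentile over non-control probes was computed. Spots carrying an outlier flag (260 to 356 per array) were dropped, which removed 17 of 30367 probes, and spots of a probe were averaged. A probe counted as above background on an array when at least 0.5 of its spots were well above background, and it was tested if so on all 3 arrays of either strain. That left 21484 probes. The brightest tested probe stood for each gene name, which gave 18816 genes. Differences were fitted with limma 3.58.1 in R 4.3.3 (lmFit and eBayes) over all genes, with Benjamini-Hochberg adjusted p below 0.05 as the threshold. Isoform ratios had an exact permutation test. Further software was the R package data.table in version 1.17.8, Python 3.11.15, pandas 2.3.3 and matplotlib 3.10.9.

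The 34 genes, the isoform pairs and the other lists were chosen with earlier results of these data known. Values on each array are given for called genes, for the 3 uncalled members furthest from 0 in each direction, and for a further set of members whatever their values (both transporters and hexokinases, Pfkm, Pfkfb2, Gapdh, Eno3, Ldha, Ldhb, Gys1, Pygm and Ppp1r3c). Tpi1 was added after its values were seen, because its groups do not overlap. Of the wider glucose list, called genes and up to 4 others with the largest difference are named, and 1 of these is not reported here. Replicate numbers follow the sample titles. They were not taken to pair the rats. The deviations of same-numbered arrays correlated at −0.09, −0.14 and −0.01, which with 3 arrays per strain cannot settle whether the rats were paired. Some LETO source names and file names carry other numbers, so this check and the replicate block hold for the numbering of the titles only. The alternatives were other normalizations (quantile, median scaling, normexp with an offset of 50), the value table, 2 other filters on dim probes, the mean of all probes, every probe on its own, eBayes with trend and robust, array weights, a replicate block, age, a slide block, and dropping each array.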

Additional observations from a re-analysis of the deposited data

How the results depend on the processing

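The 3 calls among the 34 genes became 5 with trend and robust moderation (Slc2a1 and Pygb added, with 654 calls over all genes), 4 with array weights and 1 with slide as a block, and leaving out 1 array gave 2 to 3. Over all genes the 480 calls became 240 with no filter on dim probes, 1700 with array weights, 301 with the replicate block and 105 with slide as a block, and 199 to 615 without 1 array each. The replicate block left 2 of the 34 genes called, with Phka1 at an adjusted p of 0.0686, and whether the numbers pair the rats is not known. Members near 0 changed sign in some settings: Pfkm (0.011) and Ldhb (0.039) with quantile normalization, Ldhb (0.0013) with median scaling, Pfkm (0.0075) with normexp, and Pfkfb3 (0.13) with the mean of all probes. Array weights gave Pfkfb1 0.011, Pgk1 −0.022, Pgm1 0.013, Ugp2 −0.11 and Gys1 −0.022, and age as a covariate gave Pfkp −0.0017 and Pkm2 −0.0065. Slide as a block gave Slc2a4 0.016, Pfkm 0.049, Pfkp −0.028, Ldhb 0.022, Pgm1 0.018 and Ppp1r3c −0.17. Without 1 array each the range was −0.13 to 0.019 for Gpi, −0.085 to 0.094 for Pfkp, −0.18 to 0.059 for Gapdh, −0.0070 to 0.16 for Pgk1, −0.15 to 0.037 for Pgm1, −0.14 to 0.092 for Ugp2 and −0.19 to 0.045 for Pygm. It was −0.090 to 0.011 for Pfkm, −0.015 to 0.14 for Pkm2, −0.18 to 0.045 for Pfkfb2, −0.025 to 0.087 for Gbe1 and −0.037 to 0.018 for Ldhb. None of these genes was called in any of those settings, and the cause was not tested. Over the differences of the 34 genes and their alternatives, 562 values kept their direction and side of the threshold, 36 changed sign, 10 lost a call (Eno1 and Phka1) and 3 gained one (Slc2a1 and Pygb). Slide and strain are partly mixed, and signal over background limits the Pygl, Phka1 and Pfkfb3 values.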
